A study of Mus musculus with 188 samples.

Results

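A set of 10 genes that mark disease-associated microglia were followed through every labelled treatment of mouse organotypic brain slice cultures exposed to red blood cell toxins and their scavenger proteins. The members were chosen by name: Trem2, Tyrobp, Apoe, Lpl, Cst7, Gpnmb, Spp1, Itgax, Cd9 and Axl. All 10 were present among the 25472 genes that every count file lists, and all 10 passed the filter on low counts in both fits, with 0 libraries at 0 counts. Cst7 was the rarest, with 1 to 37 reads per library in batch 1 and 1 to 193 in batches 2 and 3, and Itgax was next, with 8 to 151 and 39 to 768 reads.

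Microglia are the resident macrophages of the brain. Around amyloid, dying neurons and damaged myelin they leave their resting profile, lose homeostatic genes such as P2ry12 and Tmem119, and raise a set of genes for lipid uptake, lysosomal digestion and adhesion that is called the disease-associated microglia (DAM) programme. The receptor TREM2, which binds lipids and lipoproteins and signals through the adaptor TYROBP (DAP12), is known to be needed for the full programme in mouse models, while the receptor kinase AXL belongs to the genes described as TREM2 dependent.

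Coronal slices came from wild-type C57BL/6J mice, young adults of both sexes, and were treated on day 7 of culture. In sequencing batch 1, 6 groups of 10 libraries were collected at 24 h: an untreated control (0 µM), heme bound to its low-affinity carrier albumin (heme-albumin) at 12.5, 50, 200 and 400 µM, and heme bound to hemopexin (hemeHpx) at 200 µM. Sequencing batches 2 and 3 held untreated controls (10 libraries at 24 h, 9 at 48 h), free hemoglobin (Hb) at 200 and 400 µM (10 libraries per dose and time), hemoglobin bound to haptoglobin (HbHp) at 200 µM (8 and 8 libraries) and 400 µM (4 and 5), and haptoglobin alone (Hp) at 400 µM (12 and 11). Each library is bulk mRNA of cultured slices, which hold several brain cell types but receive no blood cells from the circulation. The paper names the gradual loss of microglia in adult slice cultures as a key limitation of its model.

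Several features of these libraries bear on the values below. The titles of the hemeHpx libraries name haptoglobin, whereas their treatment tags and library names give hemopexin, which is followed here. A further 21 libraries carried labels that conflict and entered no comparison. Of these, 20 had the treatment tag HbHpx at 400 µM under titles that name haptoglobin (14 with the prefix E1 and 6 with E2), so it is open whether they belong with the 400 µM HbHp groups. Library names in batches 2 and 3 start with E1 or E2, which the labels do not explain, and E2 libraries stood apart from E1 libraries in most genes. Libraries labelled HbHp without conflict were all E2 and batch 3, and those of Hp were all batch 3, whereas the controls were mostly E1 and batch 2, so both terms were in the model. The labels do not say which libraries came from separate animals, so the p-values measure only the spread between these libraries. Total counts ran from 11038484 to 44199060 in batch 1, from 32626873 to 54174784 in batch 2 and from 15587938 to 38839614 in batch 3.

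The label was checked against cell type markers. Homeostatic microglial genes were present but low: median levels over batch 1 were 7.34 CPM (read counts scaled to library size) for P2ry12, 10.4 CPM for Tmem119 and 5.70 CPM for Cx3cr1, against 262 CPM for the complement gene C1qa. Siglech, another microglial marker, was at 0 in 54 of the 60 batch 1 libraries. The monocyte marker Ly6c2 had a median of 0 CPM and Ccr2 one of 0.0841 CPM in batch 1. Of the 4 dendritic cell markers, Xcr1 and Cd209a had medians of 0 there, Flt3 one of 0.411 CPM and Zbtb46 one of 4.67 CPM. The astrocyte marker Gfap (5294 CPM) and the myelin gene Mbp (9656 CPM) stood far above these microglial markers in CPM, which is not divided by gene length. Apoe, Cd9 and Axl are also expressed by astrocytes or oligodendrocytes, and in bulk RNA fewer cells of a type and less RNA per cell cannot be told apart.

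Levels of different members can be set side by side only per length, as RPKM, in which the scaled counts are divided by the length of the merged exons. In the batch 1 controls the order of median levels was Spp1 (3839 RPKM), Apoe (822), Cd9 (287), Gpnmb (228), Tyrobp (134), Axl (38.2), Lpl (22.8), Trem2 (16.3), Cst7 (0.667) and Itgax (0.404 RPKM). Spp1, which encodes the secreted integrin ligand osteopontin, was the most abundant member in the controls of each batch set and time, with medians of 3789 RPKM at 24 h and 5245 RPKM at 48 h in batches 2 and 3. The members therefore spanned several orders of magnitude, and Cst7 had the largest standard error of the 10 in each comparison of the fits over all libraries. Reads of Spp1 can be shared with the gene model Gm42793 on the same strand, and those of Cd9 with Gm26728 and Gm28809 on the other strand, since the strand setting of the counting is not given in the sources used here.

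Upstream sequence is shown for the 3 members whose differences between treatments are largest or whose level is highest, with a known transcription factor motif in each. The sequences are the 250 bases before the RefSeq gene start in GRCm38.p6, on the coding strand, and capitals mark the motif. Itgax (chr7:128129300-128129549, plus strand) holds an AP-1 motif 56 bases before the start, here read on the opposite strand, and Cst7 (chr2:150570165-150570414, plus strand) and the first start of Spp1 (chr5:104434861-104435110, plus strand) each hold a PU.1 core, 63 and 112 bases before the start.
Itgax: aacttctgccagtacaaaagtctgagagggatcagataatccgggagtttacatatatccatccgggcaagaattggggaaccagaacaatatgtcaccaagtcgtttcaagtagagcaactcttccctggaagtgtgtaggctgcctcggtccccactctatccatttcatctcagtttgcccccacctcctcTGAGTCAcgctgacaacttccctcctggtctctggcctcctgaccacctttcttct
Cst7: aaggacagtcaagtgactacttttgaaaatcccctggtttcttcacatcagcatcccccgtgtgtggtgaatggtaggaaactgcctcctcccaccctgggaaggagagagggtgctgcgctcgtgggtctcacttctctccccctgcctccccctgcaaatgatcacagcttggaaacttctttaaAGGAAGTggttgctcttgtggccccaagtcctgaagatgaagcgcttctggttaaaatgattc
Spp1: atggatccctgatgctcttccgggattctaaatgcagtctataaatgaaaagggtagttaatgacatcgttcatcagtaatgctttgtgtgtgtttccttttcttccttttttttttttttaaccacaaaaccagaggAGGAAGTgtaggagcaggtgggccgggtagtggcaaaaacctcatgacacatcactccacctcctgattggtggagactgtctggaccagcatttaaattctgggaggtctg
Of the 10 members, 8 had a promoter in the RefSeq table, with 11 starts in all, and Tyrobp and Lpl had no entry. The PU.1 core AGGAAGT was present in 2 of 11 member windows and in 7.69% of the 32851 windows of that length in the table, on either strand. The AP-1 motif TGACTCA was in 1 of 11 windows and in 4.46% of all, the M-box or E-box CATGTG in 1 of 11 (Cd9) and in 12.3% of all, and the E-box CACGTG in 0 of 11 and in 6.02% of all. The antioxidant response element core TGACNNNGC, through which NRF2 is known to act, was in 0 of 11 member windows and in 10.2% of all; where an AP-1 motif is followed by GC the same letters match both. A match describes letters in a window and is not a binding site.

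With heme-albumin for 24 h Cst7 fell at 200 µM and Cd9 at 400 µM, and no member rose at any dose. At 12.5 and 50 µM 0 of 10 members passed edgeR's quasi-likelihood test at an adjusted p of 0.05, and 0 had an unadjusted p under 0.05; of all genes, 0.0450% and 0.463% passed. At 200 µM 1 of 10 passed (13.6% of all genes), 6 had an unadjusted p under 0.05, 9 of 10 log2 fold changes were negative, and the median log2 fold change of the members was -0.38, against -0.01 over all genes. At 400 µM 1 of 10 passed (29% of all genes) and the members' median log2 fold change was -0.22. For 10 members a count of 1 is near the share of all genes at 200 µM and below it at 400 µM.

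**Figure D1:**
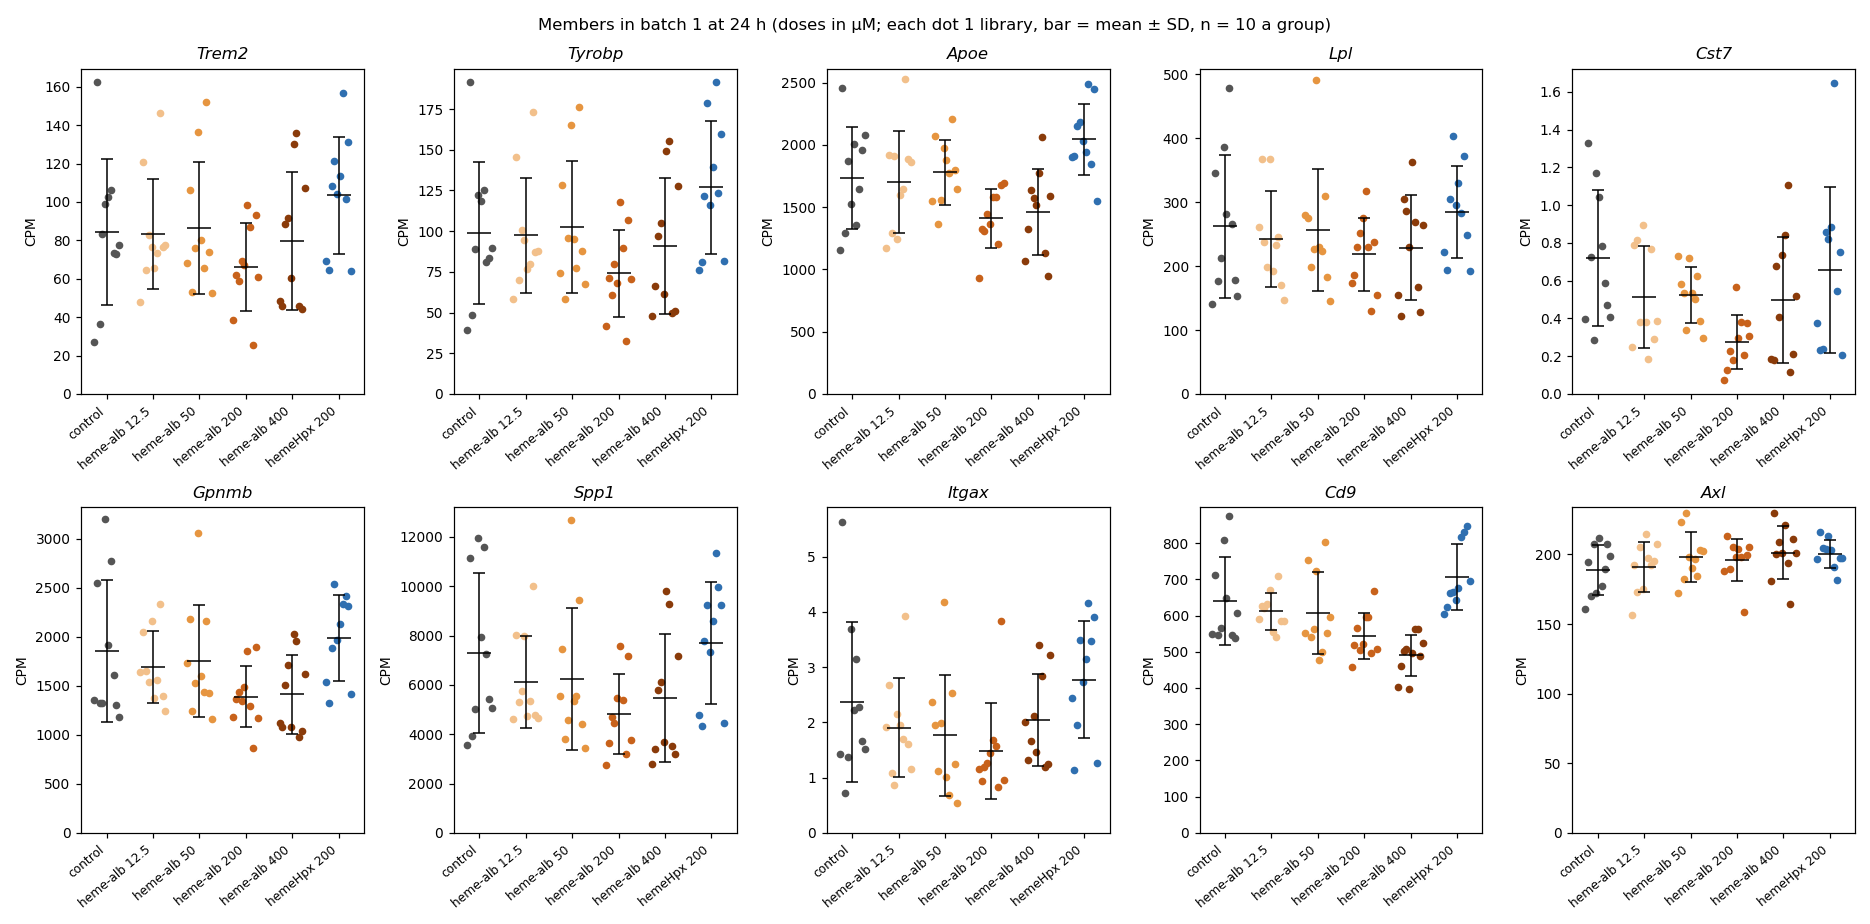
Level of each member in CPM (vertical axis, linear, from 0) in the 6 groups of batch 1 at 24 h (horizontal axis, doses in µM), with 1 dot per library and bars for the mean ± SD (n = 10 a group). Cst7 was lowest at 200 µM heme-albumin, where 5 of 10 libraries lay below all controls, and 8 members were higher with hemeHpx than with the same dose of heme-albumin.

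Cst7 encodes cystatin F, an inhibitor of lysosomal cysteine proteases, and was the member that fell at 200 µM heme-albumin. Its lowest, median and highest levels were 0.284, 0.658 and 1.33 CPM in controls and 0.0724, 0.260 and 0.566 CPM at 200 µM. None of the 10 treated libraries reached the control median and 5 lay below every control, though the groups overlapped. The log2 fold change was -1.34 ± 0.37 (SE, n = 10 and 10, adjusted p = 0.0107), a level 0.396 times that of controls. At 400 µM its median was 0.465 CPM with a log2 fold change of -0.51 ± 0.35 (adjusted p = 0.283), and the difference between 400 and 200 µM, 0.83 on the log2 scale, did not pass either (adjusted p = 0.357).

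Cd9, a tetraspanin of the cell membrane, fell at 400 µM. Controls ran from 538 to 875 CPM around a median of 586 CPM, and the 400 µM libraries from 398 to 563 CPM around 500 CPM. Of the 10 treated libraries 8 lay below the lowest control. The log2 fold change was -0.38 ± 0.09 (n = 10 and 10, adjusted p = 0.000667), and it was -0.24 ± 0.09 at 200 µM (adjusted p = 0.0650).

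The receptor pair did not pass at any dose of heme-albumin. Trem2 ran from 27.2 to 163 CPM in controls (median 80.5 CPM) and from 25.7 to 98.6 CPM at 200 µM (median 64.5 CPM), with a log2 fold change of -0.35 (95% interval -0.83 to 0.13). Tyrobp had medians of 89.4 and 71 CPM and a log2 fold change of -0.42 (95% interval -0.90 to 0.07). The spread of both genes among untreated slices was thus wider than the difference between the groups. Axl was the only member with a positive log2 fold change at 200 µM, 0.05 ± 0.06, and its control libraries lay between 161 and 212 CPM. No member passed between 200 and 50 µM (0.797% of all genes passed; 2 members at an unadjusted p under 0.05) or between 400 and 200 µM (1.27% of all genes; 1 member).

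Binding of heme to hemopexin was compared with the untreated control and with the same dose of heme-albumin. Against control 0 of 10 members passed (8.20% of all genes; 0 members at an unadjusted p under 0.05), and log2 fold changes ran from -0.13 for Cst7 to 0.36 for Tyrobp. Against 200 µM heme-albumin 8 of 10 members were higher and 0 lower, where 25.9% of all genes passed and 13% were higher. The median log2 fold change of the members was 0.59, against 0.01 over all genes. Both comparisons share libraries with the comparison of heme-albumin with control, so they are not separate evidence of a direction.

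Trem2 rose from a median of 64.5 CPM with heme-albumin to 106 CPM with hemeHpx, where the lowest and highest libraries were at 64.1 and 157 CPM. For Tyrobp the medians were 71 and 123 CPM. With hemeHpx 7 of 10 libraries for Trem2 and 6 of 10 for Tyrobp lay above all heme-albumin libraries. The log2 fold changes were 0.64 ± 0.25 for Trem2 (n = 10 and 10, adjusted p = 0.0454) and 0.78 ± 0.25 for Tyrobp (adjusted p = 0.0178).

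Among the lipid genes, Apoe, which encodes the main lipid carrier protein of the brain, differed with the least overlap. It ran from 930 to 1691 CPM (median 1404 CPM) with heme-albumin and from 1550 to 2492 CPM (median 1986 CPM) with hemeHpx. Of the hemeHpx libraries 9 of 10 exceeded the highest heme-albumin library, and the log2 fold change was 0.54 ± 0.13 (adjusted p = 0.00228). Lpl, the lipase that releases fatty acids from lipoproteins, did not pass, with medians of 230 and 289 CPM and a log2 fold change of 0.38 (95% interval -0.03 to 0.79, adjusted p = 0.159).

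The lysosomal members were both higher with hemeHpx. Cst7 had a median of 0.648 CPM and a range of 0.204 to 1.64 CPM, 5 of 10 libraries lay above all heme-albumin libraries, and the log2 fold change was 1.21 ± 0.36 (adjusted p = 0.0129). Gpnmb, a glycoprotein of lysosomes and phagosomes, rose from a median of 1353 to 2045 CPM, by 0.52 ± 0.17 on the log2 scale (adjusted p = 0.0254).

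Of the adhesion genes, Spp1 ran from 2761 to 7586 CPM (median 4590 CPM) with heme-albumin and from 4334 to 11349 CPM (median 8191 CPM) with hemeHpx, a log2 fold change of 0.68 ± 0.25 (adjusted p = 0.0360). Itgax, which encodes the integrin subunit CD11c, had medians of 1.23 and 2.94 CPM and a log2 fold change of 0.90 ± 0.31 (adjusted p = 0.0283). A single heme-albumin library at 3.83 CPM lay among the highest hemeHpx libraries, and 2 of 10 hemeHpx libraries exceeded it. Cd9 rose from a median of 520 to 670 CPM, by 0.38 ± 0.09 on the log2 scale (adjusted p = 0.00187). The receptor kinase gene Axl, which takes part in the uptake of dying cells, did not pass, with a log2 fold change of 0.03 (95% interval -0.08 to 0.14). Without a filter on low counts 6 of 10 members passed, as Spp1 (adjusted p = 0.0510) and Trem2 (adjusted p = 0.0649) then missed the threshold.

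Microglial markers moved with these members. Of 13 homeostatic and general microglial genes tested, 10 were lower at 200 µM heme-albumin than in controls and 0 higher (median log2 fold change -0.81), and 10 were higher and 0 lower with hemeHpx than with heme-albumin, with a median of 0.93. Gpr34, a microglial receptor for lysophosphatidylserine, moved most, by -2.10 ± 0.31 (adjusted p = 1.65e-06) and 1.80 ± 0.31 (adjusted p = 2.91e-05) on the log2 scale. The summed level of the 14 listed genes lay between 644 and 2088 CPM in controls, between 486 and 993 CPM with heme-albumin and between 744 and 1679 CPM with hemeHpx, with 1 listed gene, Siglech, at 0 in most libraries. At 400 µM 7 of 13 were lower. Of all genes, 13.6% passed in either direction at 200 µM heme-albumin and 29% at 400 µM. With hemeHpx against heme-albumin 25.9% of all genes passed and 13% were higher. Of 8 markers of border macrophages, 3 were lower at 200 µM than in controls and 4 were higher with hemeHpx than with heme-albumin; for 8 astrocyte markers these counts were 4 and 4. With hemeHpx against heme-albumin 3 of 8 oligodendrocyte markers (Mal, Mobp and Mog) and 2 of 7 endothelial markers (Cldn5 and Kdr) were also higher, as was Flt3, 1 of 2 dendritic cell markers tested (1.04, adjusted p = 0.00850), while the precursor marker Olig1 was lower. The part of these markers in the members' values was not tested. The hemeHpx libraries had a median total count of 25519549, against 20415944.5 for heme-albumin and 16404293.5 for controls.

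Other genes of the programme, from a list of 25 DAM and TREM2-linked genes that excludes the members, were counted in the same way. With hemeHpx against heme-albumin 18 of 25 were higher and 0 lower (median log2 fold change 0.55), led by Clec7a (0.99), Ccl6 (0.81), Ms4a6d (0.72) and Inpp5d (0.70), while against control 0 of 25 passed. Of all genes, 13% were higher with hemeHpx than with heme-albumin, and 8.20% passed for hemeHpx against control. For heme-albumin against control 13.6% of all genes passed at 200 µM and 29% at 400 µM. At 200 µM heme-albumin 4 of 25 fell, namely the phagocytic receptor gene Clec7a (log2 fold change -0.89), Ms4a6d (-0.66), Timp2 (-0.40) and Ank (-0.19). A further 2 rose, the iron storage gene Fth1 (0.52) and the growth factor gene Csf1 (0.22). Fth1 encodes a ferritin subunit and is expressed in every cell type, not in microglia alone. At 400 µM Fth1 (0.69) and Csf1 (0.28) rose and Ms4a6d (-0.60), Plcg2 (-0.49), Timp2 (-0.48) and Ank (-0.26) fell.

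Free Hb was compared with control to ask whether unbound hemoglobin moves the same genes. At 24 h 0 of 10 members passed at 200 µM (0.0971% of all genes) and at 400 µM (0.522%), and 0 had an unadjusted p under 0.05. At 48 h 0 of 10 passed at either dose, where 0.310% and 0.601% of all genes passed, and 1 member at each dose, Itgax, had an unadjusted p under 0.05. Its levels in the 48 h controls were 1.88 at the lowest, 2.85 at the median and 9.46 CPM at the highest, and with Hb the medians were 6.52 CPM at 200 µM and 6.91 CPM at 400 µM. All 10 libraries of 400 µM lay above the control median and 2 above the highest control, but neither 200 µM, at 0.69 ± 0.26 on the log2 scale (adjusted p = 0.659), nor 400 µM, at 0.88 ± 0.26 (adjusted p = 0.131), passed.

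**Figure D2:**
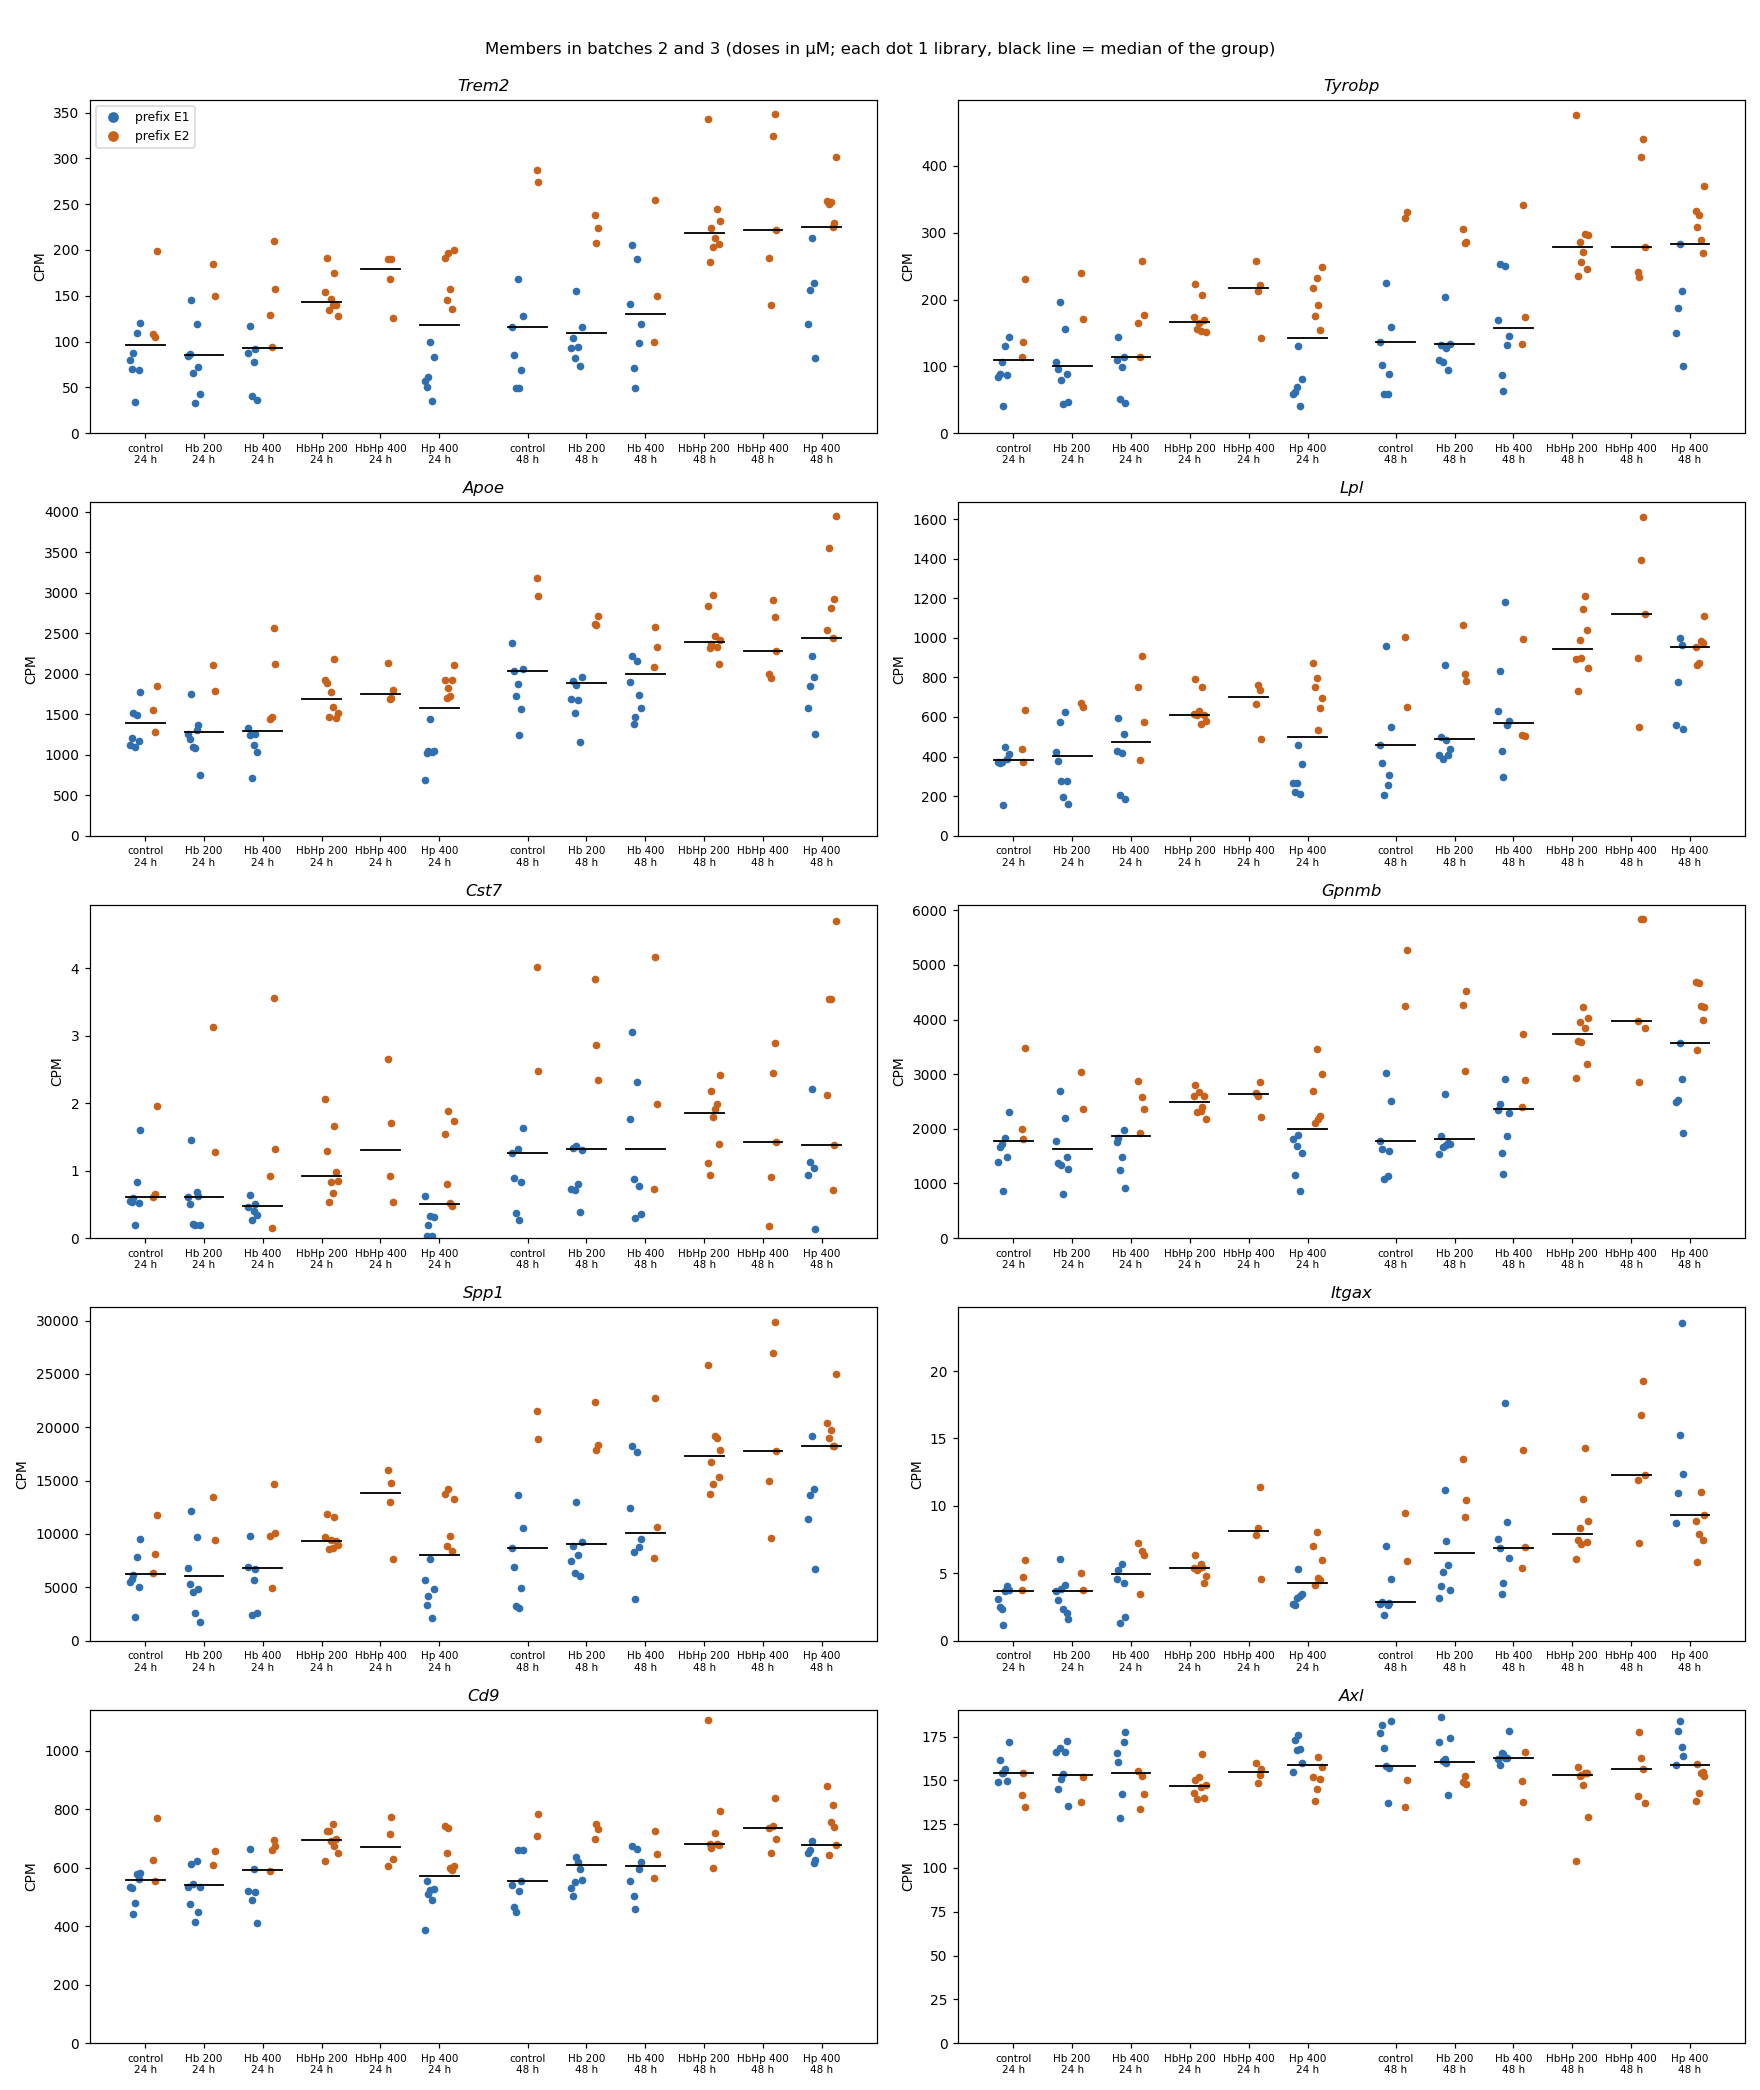
Level of each member in CPM (vertical axis, linear, from 0) in control, Hb, HbHp and Hp groups of batches 2 and 3 at 24 h and 48 h (horizontal axis, doses in µM), with 1 dot per library, coloured by its E1 or E2 prefix, and a black line at the median of each group. Itgax at 48 h had medians of 2.85 CPM in controls, 12.3 CPM with 400 µM HbHp and 9.32 CPM with 400 µM Hp. These medians are not corrected for E1 and E2, and the HbHp libraries were all E2 while most controls were E1. Among E2 libraries alone the median was 7.70 CPM in controls (n = 2) and 8.39 CPM with Hp (n = 6).

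HbHp was compared with control at both doses. At 200 µM 0 of 10 members passed at 24 h (1.93% of all genes; 0 members at an unadjusted p under 0.05) and 0 at 48 h (11.9% of all genes; 2 members). Those 2 were Itgax, with 0.82 ± 0.32 on the log2 scale (adjusted p = 0.0812), and Lpl, with 0.58 ± 0.27 (adjusted p = 0.154). At 400 µM 0 of 10 passed at 24 h (5.15% of all genes; 1 member) and 1 at 48 h (11.9% of all genes), which was Itgax. For a list of 10 members these counts are near or below the shares of all genes.

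Itgax reached its highest group median with 400 µM HbHp at 48 h, where the 5 libraries read 11.9, 7.22, 16.7, 19.2 and 12.3 CPM. Of these, 4 exceeded the highest of 9 controls (9.46 CPM) and the remaining one lay within the control range. The log2 fold change was 1.44 ± 0.35 (n = 5 and 9, adjusted p = 0.00221), a level 2.71 times that of controls. All 5 were E2 libraries, whereas 7 of the 9 controls were E1; the call was lost against the 2 E2 controls alone (0.84, adjusted p = 0.197) and in batch 3 alone (1.22, adjusted p = 0.114). At 24 h the 4 libraries read 7.82, 8.38, 11.4 and 4.56 CPM against 1.14 to 5.97 CPM in controls, and the log2 fold change of 1.05 ± 0.36 did not pass (adjusted p = 0.0752). Leaving out the lowest of these 4 libraries, which raises the value by construction, gave 1.24 (adjusted p = 0.0311). Leaving out any other single library gave no call at 24 h, and E2 libraries alone gave 0.80 (edgeR, adjusted p = 0.254).

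Lpl, the lipase gene, was examined beside it. With 400 µM HbHp its 5 libraries read 898, 552, 1394, 1612 and 1120 CPM against 206 to 1003 CPM (median 461 CPM) in controls. Of the 5 libraries 3 lay above all controls, and the log2 fold change was 0.78 ± 0.30 (adjusted p = 0.0706). Without the library at 552 CPM, the lowest of the 5, it was 0.95 (adjusted p = 0.0274), a rise that such a choice gives by construction. Leaving out any other single library gave no call for Lpl, and E2 libraries alone gave 0.52 (edgeR, adjusted p = 0.366). Cst7 libraries read 0.186, 0.912, 2.44, 2.88 and 1.43 CPM, with a log2 fold change of -0.88 ± 0.58 (adjusted p = 0.355).

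Haptoglobin alone was tested at the same dose and times. At 24 h 0 of 10 members passed with 400 µM Hp (0.704% of all genes; 0 members at an unadjusted p under 0.05), and at 48 h 2 of 10 passed (10.8% of all genes), Itgax and Lpl. Itgax ran from 5.82 to 23.6 CPM around a median of 9.32 CPM, all 11 libraries lay above the control median and 5 above the highest control, and the log2 fold change was 1.44 ± 0.30 (n = 11 and 9, adjusted p = 0.000965). Lpl ran from 542 to 1110 CPM around 954 CPM, with all 11 libraries above the control median and 1 above the highest control, and a log2 fold change of 0.76 ± 0.25 (adjusted p = 0.0348). Both calls were lost in E2 libraries alone and in batch 3 alone. These comparisons and those of HbHp use the same controls.

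Of the direct comparisons of HbHp with Hb and with Hp, none passed for any member. HbHp against Hb gave 0 of 10 at 200 µM (0.607% of all genes at 24 h, 4.98% at 48 h) and 0 of 10 at 400 µM (2.21% and 4.28%), with 0 members at an unadjusted p under 0.05 in each. HbHp against Hp at 400 µM gave 0 of 10 at 24 h (0.619% of all genes; 0 members at an unadjusted p under 0.05) and at 48 h (1.44%; 1 member, Apoe, with -0.30 ± 0.15 on the log2 scale). For Itgax the difference between HbHp and Hp at 48 h was -0.01 (95% interval -0.61 to 0.60), so a difference of up to about that size in either direction was not detectable with 5 and 11 libraries. DESeq2 made the same call for each member in the 31 comparisons of the fits over all libraries; the tests of a difference between E2 and E1 in a treatment's effect were run with edgeR only.

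**Figure D3:**
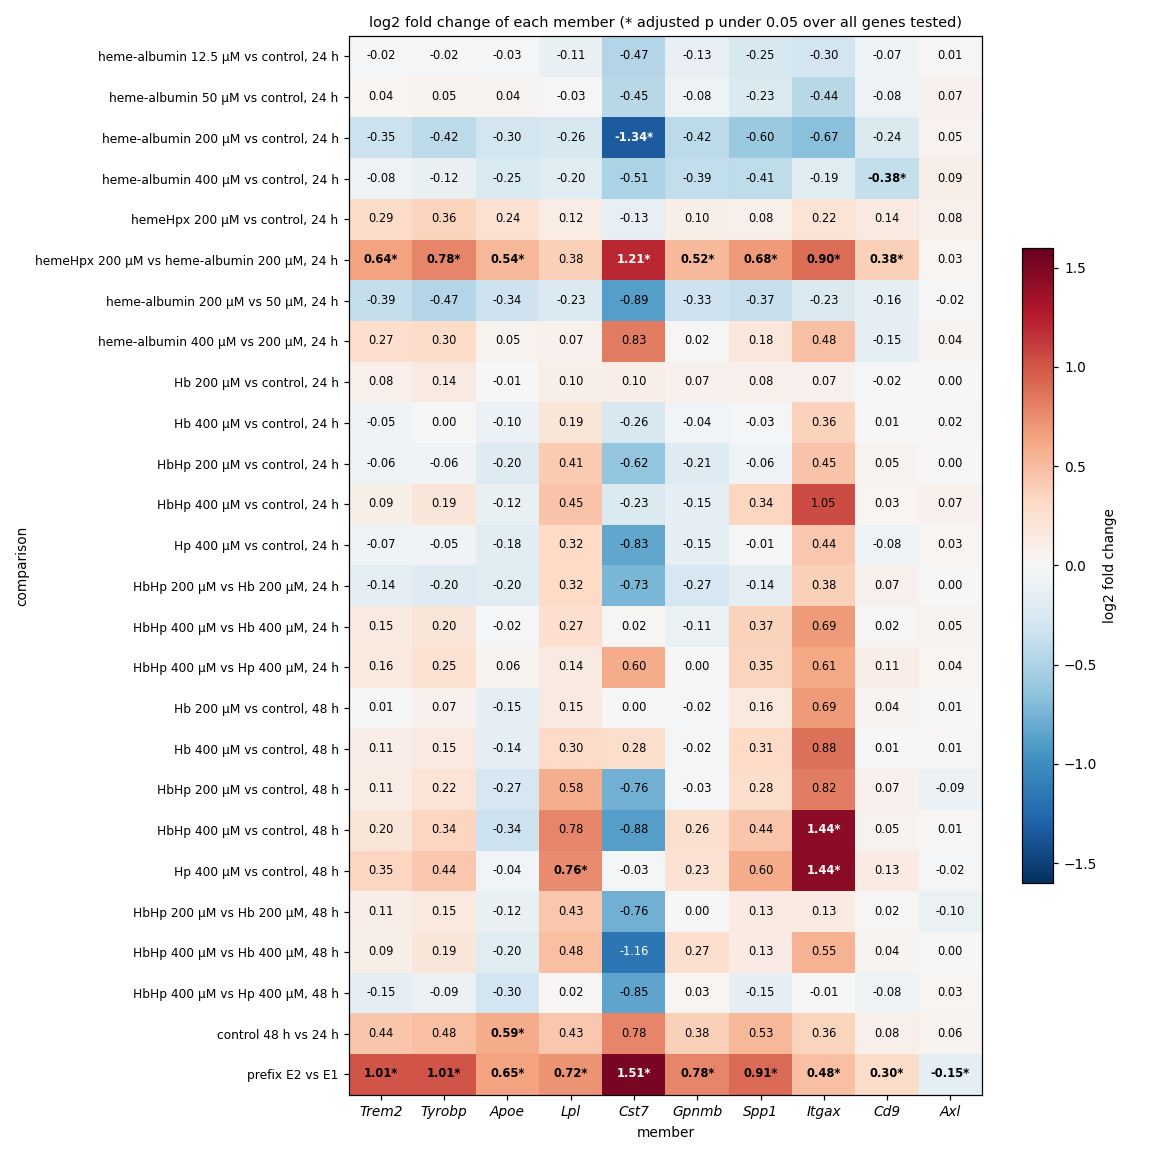
Log2 fold change of each member (columns) in each comparison (rows), coloured from lower to higher, with an asterisk where the adjusted p was under 0.05. Called members were Cst7 and Cd9 with heme-albumin (-1.34 and -0.38), 8 members for hemeHpx against heme-albumin, Itgax with 400 µM HbHp at 48 h (1.44), Itgax and Lpl with 400 µM Hp at 48 h (1.44 and 0.76), Apoe between control times (0.59) and all 10 members between E2 and E1.

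The difference of Itgax between Hp and control was larger in E1 than in E2 libraries. At 48 h the E1 controls ran from 1.88 to 7.04 CPM (median 2.80 CPM, n = 7) and the E1 Hp libraries from 8.74 to 23.6 CPM (median 12.4 CPM, n = 5), without overlap. All 5 of these Hp libraries were batch 3, whereas 6 of the 7 controls were batch 2. The 2 E2 controls read 5.93 and 9.46 CPM and the 6 E2 Hp libraries ran from 5.82 to 11 CPM (median 8.39 CPM). The log2 fold change was 2.35 in E1 alone (adjusted p = 0.000172), 0.17 in E2 alone (adjusted p = 0.954) and 1.10 in batch 3 alone (adjusted p = 0.735), where 1 control of E1 and 1 of E2 remain at 48 h. A test of the difference between E2 and E1 gave -1.97 ± 0.51 for Itgax (adjusted p = 0.0216; 3.61% of 16896 genes passed), and of the 10 members it was the only one that passed. For Lpl the log2 fold changes were 1.05 in E1 alone (adjusted p = 0.0472), 0.31 in E2 alone (adjusted p = 0.858) and 0.50 in batch 3 alone (adjusted p = 0.932), and their difference did not pass (-0.64, adjusted p = 0.447). In the corresponding tests for Hb at both doses and times and for Hp at 24 h, 0 of 10 members passed (0.00% of all genes for Hb, 0.124% for Hp).

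Levels in E2 libraries were higher than in E1 libraries for most members. All 10 members passed (68.0% of all genes), 9 higher (36.1% of all genes) and 1 lower (31.9%), with a median log2 difference of 0.75. The receptor pair Trem2 and Tyrobp both differed by 1.01 ± 0.12, Cst7 by 1.51 ± 0.22, Spp1 by 0.91 ± 0.14 and Itgax by 0.48 ± 0.13, whereas Axl was lower by -0.15 ± 0.03 (adjusted p = 6.22e-07). Of the 13 microglial markers 12 were higher and 1 lower in E2, and all 25 other DAM and TREM2-linked genes were higher. Group medians in CPM are not corrected for E1 and E2. Trem2 had a median of 222 CPM with 400 µM HbHp at 48 h, 116 CPM over all 48 h controls and 274 and 287 CPM in the 2 E2 controls, and its log2 fold change was 0.20 ± 0.30 (adjusted p = 0.744).

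Time in culture was examined in the untreated slices. Between 24 h and 48 h 1 of 10 members passed, Apoe (4.50% of all genes), while all 10 log2 fold changes were positive with a median of 0.43, and 4 had an unadjusted p under 0.05. Apoe ran from 1093 to 1852 CPM (median 1386 CPM) at 24 h and from 1242 to 3182 CPM (median 2036 CPM) at 48 h. Of the 9 later libraries 6 lay above every earlier one, and the log2 fold change was 0.59 ± 0.12 (adjusted p = 0.00212). It was 0.45 in E1 alone (adjusted p = 0.124), 0.98 in E2 alone (adjusted p = 0.0306) and 0.41 in batch 3 alone (adjusted p = 1). Of 13 microglial markers 2 were higher at 48 h (median log2 fold change 0.61), and Clec7a was the 1 of 25 other DAM and TREM2-linked genes that rose (0.84). Over the same interval 5 of 8 oligodendrocyte markers (Ermn, Mag, Mbp, Mobp and Mog; median of the list -0.31), the endothelial Pecam1 and Tek and the border macrophage marker Lyve1 were lower, and 0 of 8 astrocyte markers passed (median 0.31). The part of these markers in the Apoe value was not tested.

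The response to each treatment was not shown to differ between the times for any member. The interaction of treatment and time passed for 0 of 10 members with Hb at 200 µM (0.00% of all genes) and 400 µM (0.00%), HbHp at 200 µM (0.0121%) and 400 µM (0.0304%) and Hp at 400 µM (0.00%). The member with an unadjusted p under 0.05 in any of them was Itgax with Hp, with 1.01 ± 0.36 on the log2 scale (adjusted p = 0.314).

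Other microglial genes were examined in the comparisons in which Itgax and Lpl passed. With 400 µM Hp at 48 h 0 of 13 microglial markers passed (median log2 fold change 0.01), and with 400 µM HbHp 1 was lower and 0 higher (median -0.60). Of all genes, 10.8% passed with Hp and 11.9% with HbHp in these comparisons. Summed over 14 genes the microglial list ran from 605 to 3885 CPM in the 48 h controls, from 728 to 3916 CPM with Hp and from 1343 to 3385 CPM with HbHp. Of the 25 other DAM and TREM2-linked genes, Fth1 was the one that rose in each of these comparisons, by 0.76 with Hp and 1.22 with 400 µM HbHp on the log2 scale. It also rose with Hb at 48 h, by 0.59 at 200 µM and 0.64 at 400 µM, and was higher with HbHp than with Hb at 48 h, by 0.37 and 0.58. Of 8 markers of border macrophages 1 was higher with Hp, and 1 was higher and 1 lower with HbHp. Dendritic cells, which also use Itgax, had 2 of 4 markers tested, of which 0 passed in either of these comparisons. Outside the myeloid lists, the astrocyte markers Aldoc (-0.71) and Gfap (-0.69) and the myelin gene Mobp (-0.45) were lower with HbHp, and Aldh1l1 (-0.87), Olig1 (-0.37) and the neuronal Map2 (-0.30) with Hp. The endothelial Esam was higher in both, by 0.92 with HbHp and 0.82 with Hp on the log2 scale. The part of these markers in the Itgax and Lpl values was not tested.

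Within groups most members varied together, with the weakest values for Axl and for some pairs with Apoe or Cd9. After the group means were removed, and in batches 2 and 3 also the differences between sequencing batches and between E1 and E2, Pearson's r of log2 CPM between Trem2 and Tyrobp was 0.98 over 60 libraries of batch 1 and 0.99 over all labelled libraries of batches 2 and 3. Other pairs were Tyrobp and Spp1 with 0.91 and 0.97, Spp1 and Gpnmb with 0.93 and 0.88, Trem2 and Lpl with 0.73 and 0.93, and Cst7 and Itgax, the rarest members, with 0.58 and 0.45. Low values without Axl were those of Apoe and Cd9 (0.32 and 0.26), Apoe and Lpl in batch 1 (0.31) and Cst7 and Cd9 in batches 2 and 3 (0.24). Axl ranged from -0.09 to 0.48 with the other members in batch 1 and from -0.32 to 0.37 in batches 2 and 3. Values of 1 library share its depth and its cell composition, so these are descriptions.

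**Figure D4:**
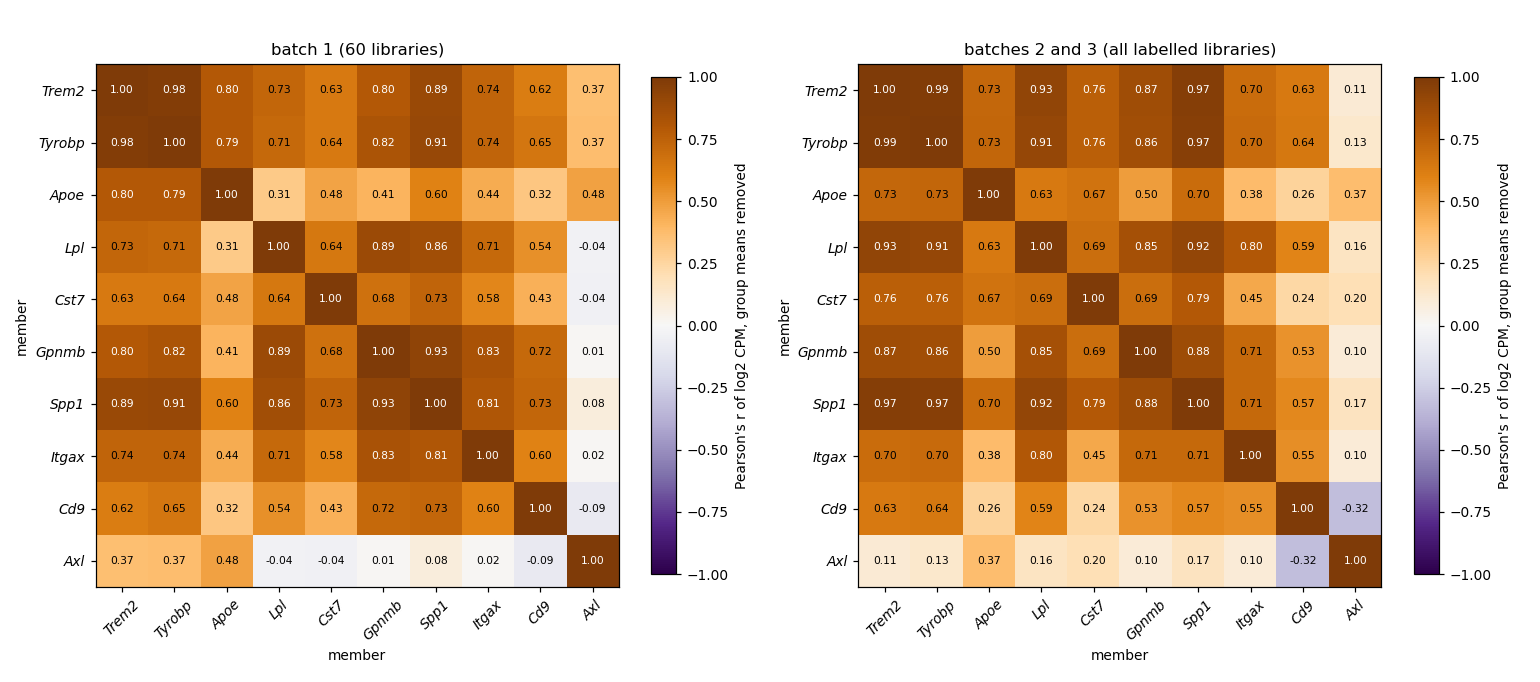
Pearson's r between members (rows and columns) of log2 CPM across libraries after group means were removed, and in batches 2 and 3 also the terms for sequencing batch and E1 or E2, for batch 1 (60 libraries) and batches 2 and 3 (all labelled libraries), coloured from -1 to 1. Trem2 and Tyrobp had r = 0.98 and 0.99, while Axl stayed between -0.32 and 0.48 with the other members.

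Against the mean of 13 microglial markers, computed in the same way, r was 0.94 and 0.97 for Trem2, 0.94 and 0.96 for Tyrobp and 0.96 and 0.97 for Spp1 in batch 1 and in batches 2 and 3. It was 0.70 and 0.79 for Apoe, 0.63 and 0.54 for Cd9 and 0.16 and 0.17 for Axl. With the mean of 8 oligodendrocyte markers r in batch 1 was 0.80 for Tyrobp, 0.76 for Cd9, 0.75 for Trem2, 0.73 for Spp1 and 0.70 for Gpnmb; in batches 2 and 3 it was 0.33 for Cd9 and between -0.08 and 0.08 for the other four. With 8 border macrophage markers r was 0.67 and 0.70 for Tyrobp and 0.76 and 0.70 for Gpnmb, but 0.18 and 0.08 for Axl. With 4 meningeal fibroblast markers it was 0.84 and 0.68 for Spp1 and 0.75 and 0.61 for Tyrobp, but 0.53 and 0.11 for Cd9. Axl had r = 0.09 and 0.60 with the mean of 8 astrocyte markers, and Apoe 0.13 and 0.45. With the same astrocyte markers Gpnmb had -0.56 and -0.20, Itgax -0.56 and -0.02 and Cd9 -0.53 and -0.31.

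The genes outside the list whose levels were most like each member were found over 60 libraries of batch 1, among 13877 candidates, by Pearson's r of log2 CPM with group differences left in. For Trem2 they were Cebpa (0.97 in batch 1, 0.98 over the labelled libraries of batches 2 and 3), Ctsd (0.97 and 0.996) and Cd37 (0.97 and 0.98), and for Tyrobp Cndp2, Ctsd and Cd37. Spp1 was closest to the cathepsin gene Ctsb (0.98 and 0.96), then Cd53 and Ctss, and Gpnmb to Plcg2 (0.96 and 0.94), Ctss and Ms4a6d. Lpl was closest to the complement receptor gene C3ar1 (0.94 and 0.94), then Lilr4b and Lipa, and Apoe to Fxyd1 (0.93 and 0.83), Cotl1 and Grhpr. Cd9 was closest to Sfrp5 (0.93 and 0.80), Map1lc3b and S100b. Cst7 was closest to Srgn, Cd300ld and Cd200r4, and Itgax to Tes, Tbc1d9 (0.86 and 0.83) and Chst1. For Axl the closest gene, Dab2ip, had r = 0.83 in batch 1 and 0.40 in batches 2 and 3.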

How the data were processed

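Bulk mRNA libraries of mouse brain slice cultures (167 labelled libraries in 18 groups, of 188) were analysed from read counts per Ensembl gene, which the authors deposited as whole numbers without normalization. The submitters' processing notes name featureCounts and the build GRCm39; the aligner, the versions and the strand setting are not given in the sources used here. RNA was extracted with the Lexogen SPLIT kit and libraries were made with Illumina TruSeq mRNA. The members and gene lists were chosen with earlier results of these data known.

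Everything else was computed from the counts. Batch 1 (60 libraries, 15554 genes tested) and batches 2 and 3 (16473 genes tested, with sequencing batch and the E1 or E2 prefix of the library names as terms) were fitted apart with edgeR 4.0.16 in R 4.3.3, with TMM factors. Genes were kept by filterByExpr at a minimum count of 10 and a minimum total of 15, and tested by the quasi-likelihood F test, which is two-sided, with Benjamini-Hochberg adjustment over all genes at 0.05. Errors of log2 fold changes are standard errors. CPM are counts scaled by library size and TMM factor, RPKM divide them by merged exon length in GENCODE M21, and correlations used log2 CPM with a prior count of 2. Promoters came from the RefSeq table of GRCm38.p6, and no coordinates of the authors' build are given. The model was tested on simulated data with known changes. All 10 members were tested and counted in every comparison. The heat map of log2 fold changes by member and comparison shows all 10 whether or not they passed. In many comparisons the text gives values for only some members, picked with the results known. Other list genes are those with the largest change among the genes that passed. Alternatives were DESeq2 1.42.0, RLE scaling, no low-count filter, a replicate block, no E1 or E2 term, E2 libraries alone and leaving out single HbHp replicates. Added after seeing the data were a correction for GC content and length, E1 or batch 3 alone, a fit of the 200 µM groups and controls alone, and leaving out 2 libraries that stood apart. The study's own differential expression used DESeq2 with shrinkage, which was not used here. Figures were drawn in Python 3.11.15 with matplotlib 3.10.9.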

Additional observations from a re-analysis of the deposited data

Results flagged for a closer look

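Of 160 tests of whether the highest or lowest library of a group of 4 to 10 stood apart from the others (Dixon's gap over range), 8 were positive, and chance gives about 1 in 20. Of these, 4 came from replicate 1 of HbHp 200 µM at 48 h, which had the highest levels of Trem2 (343 CPM, next 245), Tyrobp (477 CPM, next 298) and Cd9 (1100 CPM, next 794) and the lowest of Axl (104 CPM, next 129). A further 2 came from replicate 4 of the 24 h controls, which had the lowest Lpl (154 CPM, next 367) and Spp1 (2250 CPM, next 5030). At 200 µM heme-albumin replicate 9 had the highest Itgax (3.83 CPM, next 1.68) and replicate 8 the lowest Axl (159 CPM, next 188). Without replicate 1 of HbHp 200 µM at 48 h (30 member values) and without replicate 4 of the 24 h controls (110 member values) each member kept its call; both alternatives were chosen after seeing the data.

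A difference between groups under the same contrast was found for Itgax. Its log2 fold change for Hp against control at 48 h was lower in E2 than in E1 libraries, by a tested difference of -1.97 on the log2 scale (adjusted p = 0.0216, edgeR's quasi-likelihood test, n = 7 and 5 libraries in E1 and 2 and 6 in E2). In E1 all 5 Hp libraries exceeded the highest control. They were all batch 3, however, while 6 of the 7 E1 controls were batch 2. In batch 3 alone the log2 fold change was 1.10 and was not called.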

How the results depend on the processing

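Of 2830 values of members over all alternatives, 2804 kept their side of the threshold, 13 were lost, 13 were gained and 0 called values reversed; 351 values that did not pass changed sign. DESeq2, RLE scaling, the 200 µM groups and controls alone, and leaving out a library that stood apart moved no call, and without a low-count filter the count for hemeHpx against heme-albumin was 6. Counts of members called moved by over 1.5 times as follows. Without the E1 or E2 term 1 member passed for HbHp at 400 µM and 24 h, 3 for HbHp at 200 µM and 48 h, 2 for HbHp at 400 µM and 48 h, 1 for Hp at 48 h, 1 for HbHp against Hb at 200 µM and 48 h, and 0 between control times. In E2 libraries alone 0 passed for HbHp at 400 µM and for Hp at 48 h and 2 between control times (Apoe and Gpnmb). In E1 alone 0 passed between control times, and in batch 3 alone 0 passed for HbHp at 400 µM and 48 h, for Hp at 48 h and between control times; these fits hold fewer libraries. Leaving out single HbHp 400 µM replicates gave counts of 0 to 1 at 24 h and 1 to 2 at 48 h. With a correction for GC content and length, 2 passed at 200 µM and 2 at 400 µM heme-albumin (Apoe in addition, at -0.36 and -0.33 on the log2 scale) and 1 for Hp at 48 h. Apart from the constructions just named, the cause was not tested. The replicate block used the letter and number of the library names, which the labels do not explain. With the replicate block 1 member passed for HbHp at 200 µM and 48 h (Lpl, 0.67, adjusted p = 0.0384 by edgeR) and 2 for HbHp at 400 µM and 48 h (Lpl, 0.85, adjusted p = 0.0150, in addition); it moved no other count. All pairs of libraries with the same code were counted, including pairs within a group. They correlated over 0.1 in 97 of 175 cases in batch 1 and in 126 of 300 in batches 2 and 3. The mean correlation was 0.128 within codes and -0.030 between codes in batch 1, and 0.059 and -0.013 in batches 2 and 3. In batch 1 30 of 60 libraries correlated best with their own code, as did 16 of those of batches 2 and 3. Correlation was thus higher within codes than between them. Whether a code marks paired libraries was not tested, and the main fits did not take the codes as pairs. Depth limits Cst7 most, with a median of 10 reads per library in batch 1 and 34 in batches 2 and 3. Few libraries limit the comparisons of HbHp 400 µM with control. There were 4 against 3 E2 controls at 24 h and 5 against 2 E2 controls at 48 h.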

Other observations

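The 21 libraries that the labels put in no group were scaled together with the 19 controls of batches 2 and 3, and some lay outside the range of those controls. Itgax ran from 2.28 to 16.6 CPM around a median of 6.78 CPM, with 5 libraries above the highest control (9.64 CPM). Lpl ran from 191 to 1283 CPM around 688 CPM, with 4 libraries above the highest control (1022 CPM), and Axl from 141 to 206 CPM, with 6 above the highest control (183 CPM). Trem2, Tyrobp and Spp1 each had 2 libraries above the highest control, and Apoe, Cst7, Gpnmb and Cd9 had 0. Below the lowest control lay 4 libraries for Apoe (lowest 941 CPM, against 1123 CPM) and 1 for Cst7 (0.0661 CPM, against 0.195 CPM), and 0 for the other 8 members. These libraries are not replicates of 1 condition and were not compared with any group by a test.

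The iron storage gene Fth1, from the list of 25 other DAM and TREM2-linked genes, passed in more comparisons than any member. It rose with heme-albumin at 50 µM (0.45 on the log2 scale), with Hb at 400 µM and 24 h (0.41), and with HbHp at 24 h (0.45 at 200 µM and 0.72 at 400 µM) and at 48 h (0.97 at 200 µM). At 400 µM and 48 h it was higher with HbHp than with Hp by 0.46. It was chosen for mention after its values were seen.

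Choroid plexus RNA differed widely between libraries of the same group. The summed level of 4 choroid plexus markers ran from 0.711 to 3330 CPM in the controls of batch 1 and from 0.525 to 387 CPM in the 48 h controls, and from 1.57 to 1021 CPM with Hp at 48 h. Of these markers 0 of 4 passed in the comparison of Hp with control at 48 h (median log2 fold change 2.01), where 10.8% of all genes passed. Their part in the members' values was not tested.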
